A study of Mus musculus with 10 samples.

Results

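The change of control mouse B cells from the resting state to the induced germinal center state was described here over all genes. It used every library labelled WT, 5 of the 10 libraries of the series: 2 of naive splenic B cells on day 0 (naive WT) and 3 of induced germinal center B cells on day 4 (iGCB WT). RNA-seq counts were given for 55492 gene symbols, of which 21010 had enough counts to be tested. The study deleted Pcbp1, which encodes a protein that binds cytosine-rich RNA and delivers iron, in B cells of mice with floxed Pcbp1 alleles and Mb1-Cre, a Cre expressed from early B cell development. The 2 naive and 3 iGCB libraries of those mice (KO) entered the fit only to estimate the spread of each gene and to show where the transition of WT cells differed. iGCB cells are grown on 40-LB feeders, mouse fibroblasts engineered to present CD40 ligand and the survival factor BAFF. The labels give no age, sex or strain, do not say whether WT mice carried Cre, name no cytokine added to the culture, and do not say whether each library came from a separate mouse. p-values therefore measure only the spread between these libraries, which may be technical.

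A resting follicular B cell circulates in a quiescent state with membrane IgM and IgD. When antigen and T cell help through CD40 reach it, it grows, divides rapidly, and can enter class switching and somatic mutation of its antibody genes. Cells that then become plasma cells expand the endoplasmic reticulum and secrete antibody. The feeder culture replaces the signals of T cells and of the follicle with CD40 ligand and BAFF.

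Each WT library held 33400672 to 63576147 counts. The first principal component of log2 CPM (counts scaled to the library total) held 78.6% of the variance over the 10 libraries and separated day 0 from day 4. The second held 5.69%. It placed naive WT 1 and naive KO 1 (76.2 and 84.7) apart from naive WT 2 and naive KO 2 (-61.7 and -68.1). Correlations of log2 CPM between WT replicates were 0.94 in naive cells and 0.98 in iGCB cells. Xist, which is transcribed from the inactive X chromosome, placed naive WT 1 apart as the sole WT library from a female, so naive WT 1 and iGCB WT 1 do not come from the same animal. The stages also differed in the kinds of RNA in the library. Rn7sk, a small nuclear RNA without a poly(A) tail, was at 14671 and 7271 CPM in naive cells and at 2.28, 2.17 and 30.2 CPM in iGCB cells. Of 1246 tested genes of the annotation class TEC (loci without a settled model), 844 were lower in iGCB cells and 33 higher, with a median log2 fold change of -4.77, whereas the 13879 protein-coding genes had a median of 0.09. Shorter protein-coding genes had higher fold changes: over 10 bins of equal size the median fell from 1.04 in the bin with the shortest exons to -0.63 in the bin with the longest. Across 9398 such genes, which are not independent replicates, Spearman's rho with exon length was -0.33. Their part in the results was not tested. Fold changes are therefore also given, where they change the call of a named gene and for several lists, from a fit with an offset that removes each library's trend with exon length, an alternative chosen after the data were seen.

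**Figure D1:**
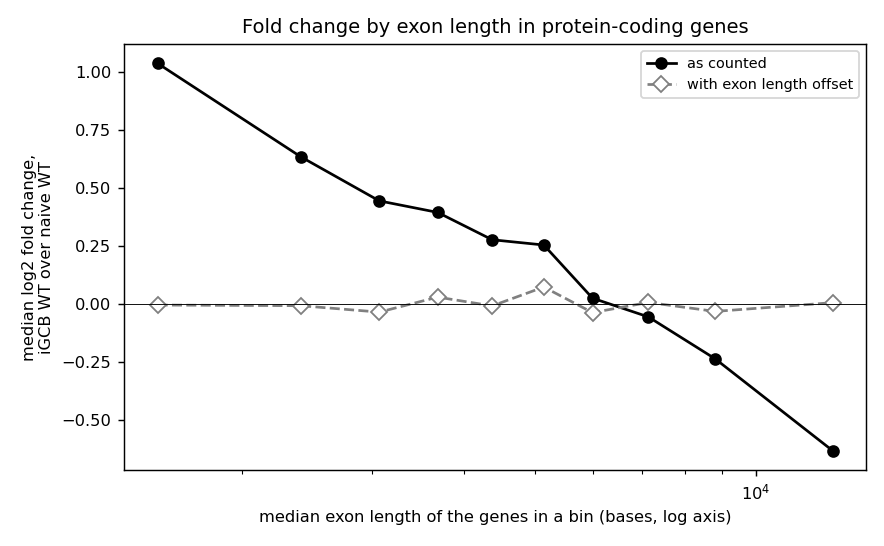
Median log2 fold change of iGCB WT over naive WT (vertical axis) against median exon length in bases (log horizontal axis) for 10 equal bins of the 9398 protein-coding genes. Filled circles are the values as counted, which fall from 1.04 to -0.63, and open diamonds those with the exon length offset, which stay near 0.

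Most tested genes differed between the WT libraries of day 0 and day 4. At an adjusted p under 0.05, 5184 genes were higher in iGCB cells (24.7% of genes tested) and 6661 were lower (31.7%), 56.4% in either direction. In 5164 of the former and 6574 of the latter the 2 groups did not overlap. A lack of overlap in a called gene, stated for many genes below, therefore adds little to its call. With the exon length offset the split was 3971 higher (19.4%) and 8355 lower (40.8%), 60.1% in either direction, and 56 genes were called in the opposite direction. A stricter test against a fold of 2 left 2739 higher (13.0%) and 4174 lower (19.9%), 32.9% in either direction. The median log2 fold change of all genes was -0.25. This median and the shares of 24.7% higher and 31.7% lower are the background for every gene list below. Values are relative to the library total, and in bulk RNA fewer cells of a type cannot be told apart from less RNA per cell.

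Single genes were ranked among those past the threshold with an average log2 CPM of 2 or more and no overlap between groups, with V, D and J segments and predicted or clone-named genes left out, so genes with larger folds at lower levels are not among them. The 12 largest rises under this rule included Ccn3, Ighe and Ccl22. Ccn3, a secreted matricellular protein, was at 0 counts in both naive libraries and at 146, 190 and 164 CPM in iGCB cells. Ighe, the constant region gene of IgE, was at 2.68 and 0.151 CPM in naive cells and at 9183, 8703 and 8097 CPM in iGCB cells. Ccl22, a chemokine that attracts CCR4-bearing T cells, was at 1.99 and 2.12 CPM and at 2200, 3983 and 2856 CPM. The rule fixed in advance that these groups did not overlap. The log2 fold changes of Ighe and Ccl22 were 12.51 ± 1.03 and 10.52 ± 0.50 (SE). Also among the 12 were H2-M5, a nonclassical MHC class I gene (11.91), Scn3a, a voltage-gated sodium channel subunit (11.57), P2rx3, an ATP-gated channel (10.28), Htr7, a serotonin receptor (8.84), and Insm1, a zinc-finger repressor known from neuroendocrine cells (8.74). Tmem176b (8.04), Tmem176a (7.90), Gprin3 (7.84) and the p53 target Phlda3 (7.66) completed the 12. Tmem176a and Tmem176b are neighbouring membrane protein genes, and both rose to between 553 and 1118 CPM in every iGCB library.

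The 12 largest falls under the same rule were led by Fosb and Rn7sk. Fosb, a subunit of the AP-1 transcription factor, was at 934 and 2262 CPM in naive cells and at 0.292, 0.836 and 0.345 CPM in iGCB cells, a log2 fold change of -11.66 ± 0.63. Fos (-8.29), the orphan nuclear receptor Nr4a1 (-8.21), the urokinase receptor Plaur (-8.22), Rasgef1b (-8.42) and Rgs2, a regulator of G protein signalling (-7.14), fell with it. Cr2, the complement receptor CD21 of mature B cells, was at 702 and 1124 CPM and then at 6.10, 5.46 and 4.14 CPM (-7.45 ± 0.31). Rn7sk (-9.88), the interferon-inducible Ifi206 (-7.76), Vcam1 (-7.67), which is a macrophage marker in spleen, the calcium channel gene Cacna1i (-7.33) and Nxpe2 (-7.17) made up the rest of the 12.

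**Figure D2:**
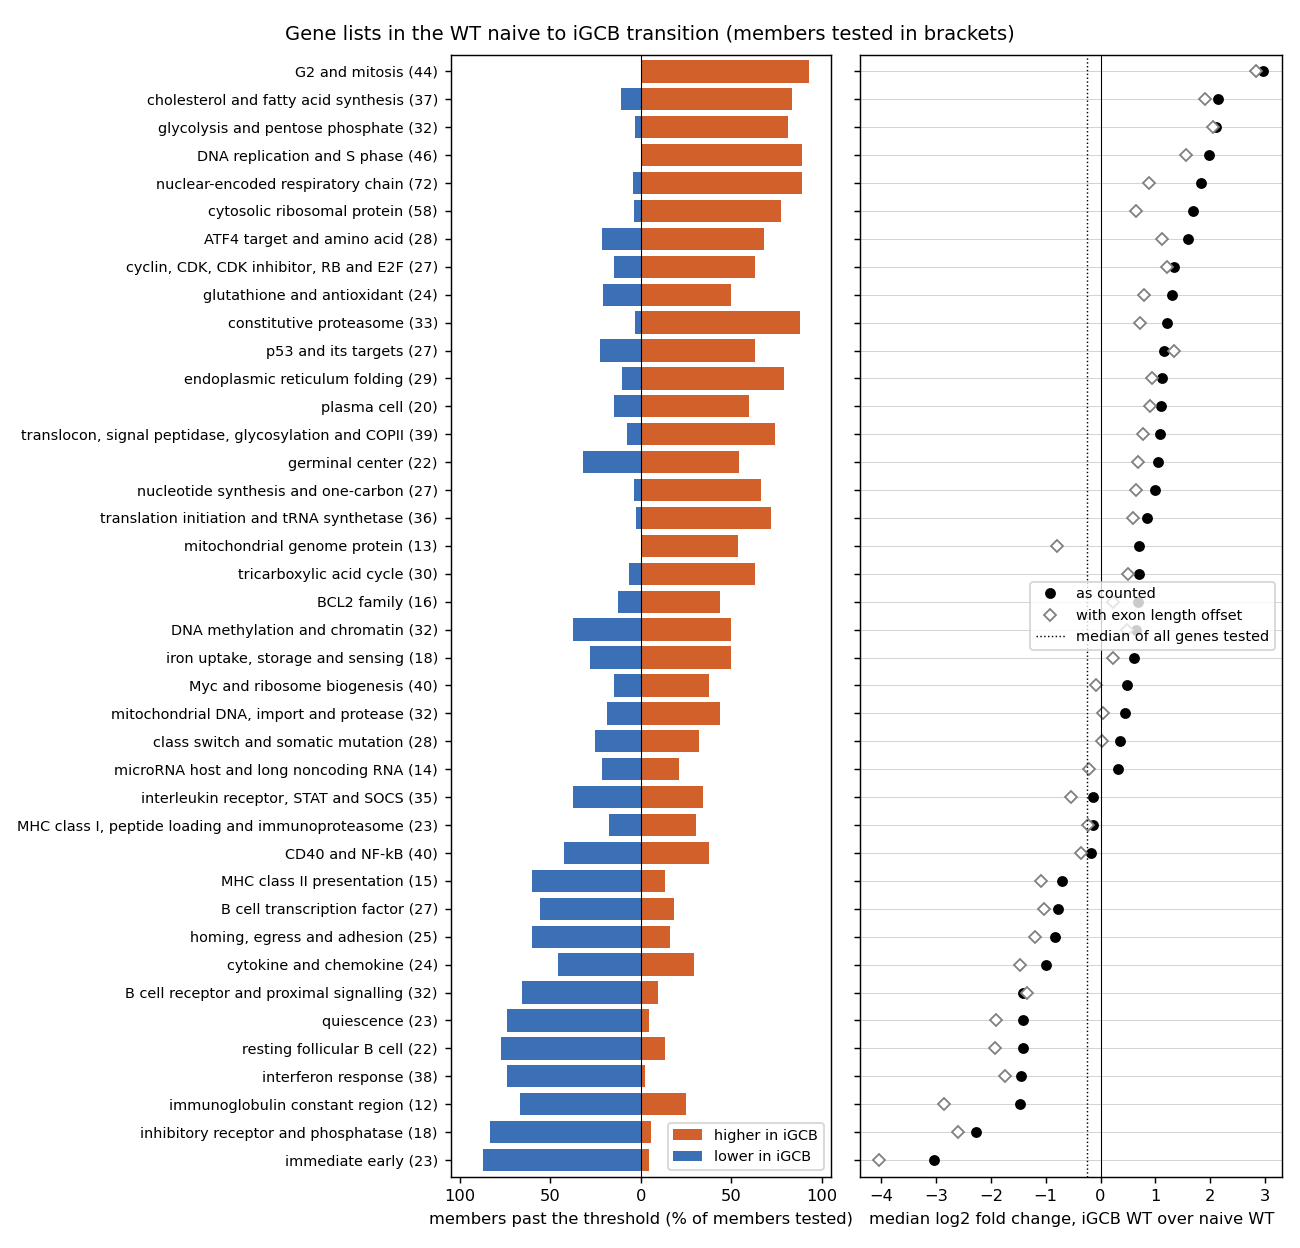
For each gene list (members tested in brackets), the left panel gives the percentage of members higher (right, orange) and lower (left, blue) in iGCB WT at an adjusted p under 0.05. The right panel gives the median log2 fold change as counted (filled) and with the exon length offset (open), beside the median of all genes at -0.25 (dotted). Mitosis, cholesterol and glycolysis lists lie at the top and inhibitory receptor and immediate early lists at the bottom.

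Constant region genes of the immunoglobulins moved in both directions. Of 12 constant region genes, 3 were higher and 8 lower, and with the length offset 2 and 10. Ighd, the IgD heavy chain, was at 2614 and 1814 CPM in naive cells and at 16.1, 15.5 and 23.9 CPM in iGCB cells (log2 fold change -6.90 ± 0.32). Ighm, the IgM heavy chain, fell from 10434 and 4923 CPM to 2805, 1817 and 2603 CPM (-1.67 ± 0.29). Ighg1, the IgG1 heavy chain, was at 151 and 24.9 CPM and then at 2787, 2279 and 2272 CPM (4.79 ± 0.70). The groups did not overlap in any of the 3. On a scale per exon length, in TPM (counts per exon length, scaled to a fixed library total), the order of heavy chains in naive cells was led by Ighm at 11774 ± 4537 and Ighd at 3429 ± 420 (SD, n = 2). In iGCB cells it was led by Ighe at 15404 ± 1618, Ighm at 3585 ± 756 and Ighg1 at 2660 ± 398 TPM (SD, n = 3), with Ighm and Ighg1 near each other (lowest Ighm library 2789, highest Ighg1 library 3103). The other isotypes fell: Ighg3 (-5.52), Ighg2b (-5.70), Ighg2c (-6.36) and Igha (-4.80). Counts over a constant region gene do not separate germline transcripts from switched ones. Igkc, the kappa light chain, did not pass the test (-0.51, adjusted p = 0.15, overlapping groups), but without naive WT 2 its fall of 0.98 did (adjusted p = 0.0038), and so did its change with the length offset (-2.32, adjusted p = 3.29e-05). Of 97 tested kappa V segments 58 were higher and 0 lower, against 6 higher and 7 lower of 104 heavy chain V segments. Over all genes 24.7% were higher and 31.7% lower. In the bin of protein-coding genes with the shortest exons 61.3% were higher and 9.26% lower. The part of exon length in the kappa rise was not tested. V segments share near-identical reads, so single segments are uncertain.

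**Figure D3:**
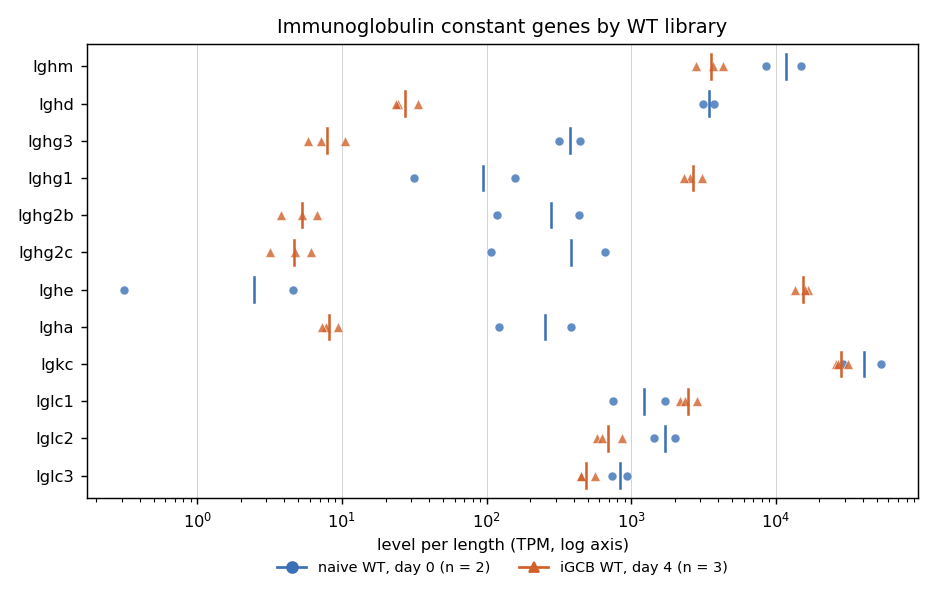
Level per exon length (TPM, log axis) of the 12 immunoglobulin constant genes in the 2 naive WT libraries (circles) and the 3 iGCB WT libraries (triangles), with bars at the means. Ighe and Ighg1 lie higher, and Ighd, Ighg2b, Ighg2c, Ighg3 and Igha lower, in all iGCB libraries.

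Genes of class switching were called about as often as genes in general. Of 28 tested genes of switching and somatic mutation 9 were higher and 7 lower, beside the 56.4% called over all genes, and the median of 0.35 was 0.10 without naive WT 2. The uracil glycosylase Ung (1.08), the exonuclease Exo1 (2.72) and the ubiquitin ligase Rnf168 (1.76), which act on or around the break, were higher. Trp53bp1, which protects broken ends from resection, was lower (-0.82), though not with the length offset (-0.16, adjusted p = 0.47). Hmces, which shields abasic sites, was lower (-4.29).

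Germinal center and plasma cell genes moved in both directions. Of 22 germinal center genes 12 were higher and 7 lower (median 1.05), and of 20 plasma cell genes 12 were higher and 3 lower (median 1.10). Without naive WT 1 the genes called lower numbered 4 and 1 and the germinal center median was 1.97, and without naive WT 2 the plasma cell genes called lower numbered 1. Fas, the death receptor used to gate germinal center cells, was at 7.46 and 4.08 CPM and then at 151, 147 and 138 CPM (4.65 ± 0.28). Basp1 (5.08), the DNA glycosylase Neil1 (3.09) and the transcription factor Mef2b (2.53) were also higher. Bcl6, the defining repressor of the germinal center, went the other way, from 184 and 128 CPM to 87.9, 67.8 and 56.6 CPM (-1.14 ± 0.24, adjusted p = 0.0026). Rgs13, a germinal center regulator of chemokine signalling, was at 14.0 and 4.24 CPM in naive cells and at 0.117, 0 and 0 CPM in iGCB cells. The groups did not overlap for any of these genes.

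Among plasma cell genes Xbp1, the transcription factor of the secretory programme, rose from 133 and 85.3 CPM to 1254, 1197 and 1097 CPM (3.44 ± 0.23). Mzb1, an endoplasmic reticulum chaperone partner of marginal zone and B-1 cells (4.01), and the surface receptor Cd93 (2.71) were higher. Prdm1, which encodes Blimp-1, was at 24.6 and 18.2 CPM and then at 75.2, 35.2 and 37.5 CPM (1.20 ± 0.41, adjusted p = 0.028). That call was lost without naive WT 2 (adjusted p = 0.14) and without iGCB WT 1 (0.77, adjusted p = 0.11). Irf4 was lower (-0.78), a call lost without naive WT 2 (-0.41, adjusted p = 0.08). Jchain, the joining chain of IgM and IgA polymers, and Sdc1, the plasma cell marker CD138, overlapped between stages at log2 fold changes of 0.07 and 0.19 (adjusted p = 0.83 and 0.63).

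Transcription factors that define B cell identity were mostly lower. Of 27 such factors 15 were lower and 5 higher (median -0.78). Pax5 fell from 1815 and 2156 CPM to 506, 471 and 467 CPM (-2.04 ± 0.19). Ebf1, which with Pax5 establishes the lineage, fell from 820 and 1395 CPM to 98.7, 95.7 and 67.2 CPM (-3.67 ± 0.27). Bach2, a repressor that delays plasma cell differentiation, was at 555 and 598 CPM and then at 70.5, 40.3 and 39.1 CPM (-3.53 ± 0.27). None of these groups overlapped. Ets1 was lower as well (-2.11), while the coactivator Pou2af1 (1.76), the AP-1 partner Batf (3.40) and Lef1 (2.90) were higher.

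The B cell receptor pathway was lower from its kinases to its adaptors. Of 32 genes of the receptor and its proximal signalling 21 were lower and 3 higher (median -1.41). Syk, the kinase that binds the phosphorylated receptor, was at 2571 and 1942 CPM in naive cells and at 170, 149 and 121 CPM in iGCB cells (-3.94 ± 0.22). Bank1, an adaptor in receptor and CD40 signalling, fell from 824 and 1257 CPM to 18.6, 11.7 and 11.4 CPM (-6.23 ± 0.31). Both genes stood apart without overlap. Btk was lower (-2.16), and the Src kinase Fyn was higher (1.67). The receptor chain gene Cd79a was lower by a small margin (-0.69). Its partner chain Cd79b did not pass the test (-0.33, adjusted p = 0.34), but did without naive WT 2 (-0.81, adjusted p = 0.009) and with the length offset (-1.30, adjusted p = 0.0006).

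Receptors that dampen this pathway were also lower. Of 18 inhibitory receptors and phosphatases 15 were lower and 1 higher (median -2.26), and the 1 higher was lost without naive WT 1, naive WT 2, iGCB WT 1 or iGCB WT 2. Fcgr2b, the inhibitory IgG Fc receptor, was at 218 and 129 CPM and then at 14.9, 8.11 and 10.1 CPM (-3.98 ± 0.31). Pirb (-5.92) and Siglecg (-2.31) were lower, while Cd22 did not pass (-0.40, adjusted p = 0.098). Cd22 was lower without naive WT 2 (-0.64, adjusted p = 0.024), with RLE scaling (-0.48, adjusted p = 0.038), in DESeq2 (-0.48, adjusted p = 0.014) and with the length offset (-0.58, adjusted p = 0.0084). Antigen presentation through MHC class II was lower too: of 15 genes 9 were lower and 2 higher (median -0.70). Cd74, the invariant chain, fell from 14316 and 12319 CPM to 4689, 5063 and 4181 CPM (-1.52 ± 0.20), H2-Ab1 fell by 1.28, and Ciita, the class II transactivator, by 0.88. H2-DMa, which loads peptide onto class II, was higher (0.88).

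CD40 signalling genes split by direction. Of 40 genes 15 were higher and 17 lower (median -0.17, and -0.04 without naive WT 1). Cd40 itself was at 51.2 and 46.7 CPM in naive cells and at 42.7, 50.9 and 54.6 CPM in iGCB cells, overlapping groups with a log2 fold change of 0.01 (adjusted p = 0.95). With the length offset it was lower (-0.42, adjusted p = 0.025). The adaptor Traf1 (2.18) and the costimulatory ligand Cd80 (3.98) were higher. Cd86, the other ligand of CD28, was lower (-2.62), with 81.7 and 212 CPM against 14.9, 40.0 and 16.8 CPM. The NF-kB subunit Relb (-1.55) and the nuclear inhibitor Nfkbid (-3.92) were lower.

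Genes downstream of cytokine receptors also split. Of 35 interleukin receptor, STAT and SOCS genes 12 were higher and 13 lower. Their median of -0.13 had no stable sign, since it was 0.27 without naive WT 1, 0.13 without iGCB WT 1 and 0.01 without iGCB WT 3. Socs2, Cish and Socs1, which STAT proteins induce and which limit cytokine signals, rose by 7.10, 7.24 and 5.59. Socs2 was at 3.17 and 4.44 CPM in naive cells and at 448, 615 and 498 CPM in iGCB cells. Cish was at 1.15 and 0.908 CPM and then at 134, 187 and 149 CPM. Neither gene's groups overlapped. The interleukin 4 receptor chain Il4ra was higher (1.59), as were the interleukin 5 receptor chain Il5ra (3.88) and the transcription factor Nfil3 (5.28). Stat6, the transducer of interleukin 4, was lower (-1.29). Of 24 cytokine and chemokine genes 7 were higher and 11 lower (median -0.99, and -0.09 without naive WT 1). Beside Ccl22, the growth factors Csf1 (3.80) and Vegfa (3.96) were higher.

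Receptors for homing and egress were mostly lower. Of 25 genes 15 were lower and 4 higher (median -0.83). S1pr1, the receptor for egress to blood, fell from 694 and 843 CPM to 32.0, 15.6 and 15.5 CPM (-5.19 ± 0.36). The chemokine receptors Ccr6 (-5.64), Ccr7 (-1.36) and Cxcr4 (-1.04) were lower. Cd44, the hyaluronan receptor of activated lymphocytes (1.66), and Selplg, the selectin ligand PSGL-1 (1.86), were higher. None of these 6 genes had overlapping groups.

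Genes that keep lymphocytes quiet fell, and so did genes that mark recent stimulation. Of 23 quiescence genes 17 were lower and 1 higher (median -1.41), with 2 higher without naive WT 1. Klf2, which holds naive cells in a resting, recirculating state, was at 537 and 710 CPM and then at 51.4, 83.8 and 38.5 CPM (-3.43 ± 0.34). Klf4 (-5.91), Klf6 (-5.33), Tsc22d3 (-4.32), Btg1 (-2.27), Txnip (-2.14) and the cell cycle inhibitor Cdkn1b (-0.90) were lower. Of 23 immediate early genes 20 were lower and 1 higher, Ier3 (median -3.04). Egr1 was at 554 and 299 CPM in naive cells and at 5.43, 8.47 and 4.79 CPM in iGCB cells (-6.10 ± 0.36), and Jun fell by 4.06. The rise of Ier3 (2.97) was not past the threshold with the length offset (1.59, adjusted p = 0.077). Of 38 interferon response genes 28 were lower and 1 higher (median -1.45), with 2 higher and a median of -0.95 without naive WT 1. Irf7 (-3.36), Ifit3 (-7.03) and Oasl1 (-6.73), which are induced by type I interferon, were among the lower, and Dhx58, an RNA sensor regulator, was the higher (2.02).

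**Figure D4:**
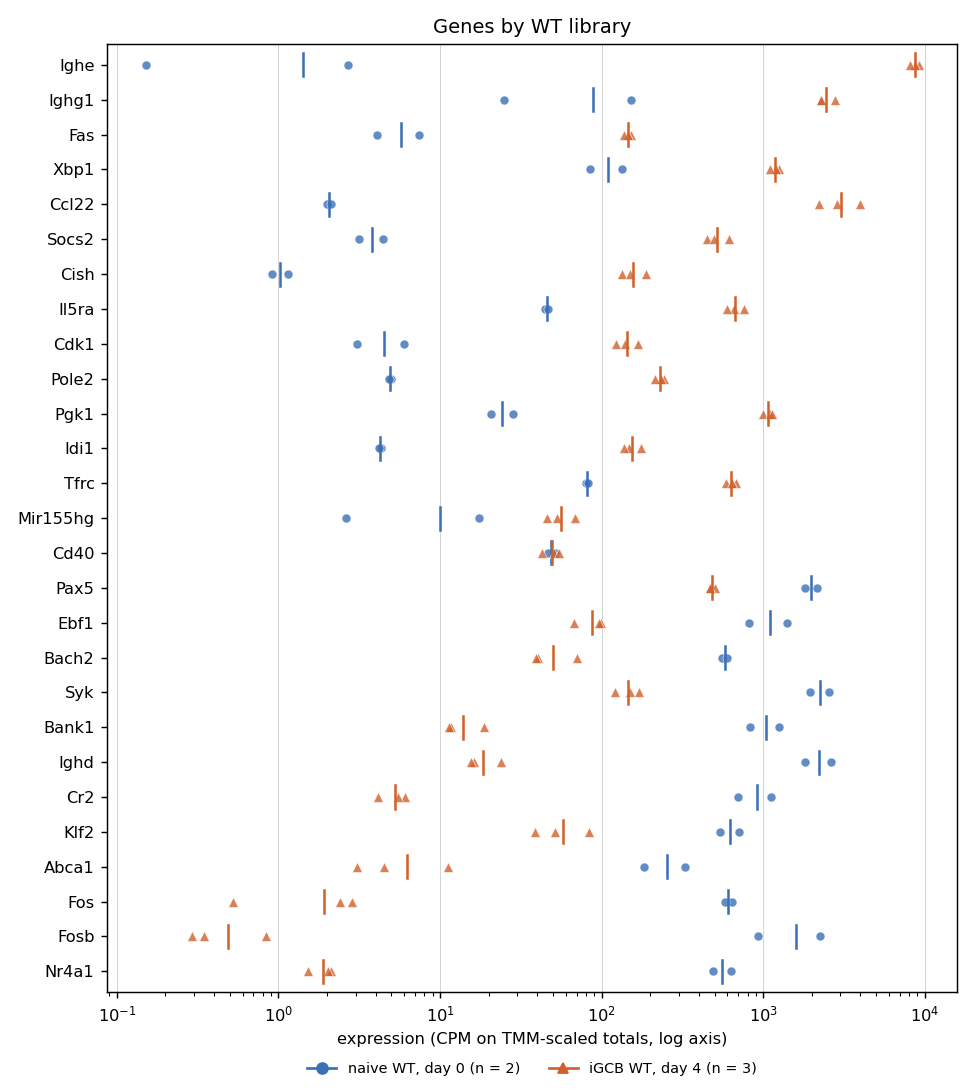
CPM on a log axis of 27 genes in the 2 naive WT libraries (circles) and the 3 iGCB WT libraries (triangles), with bars at the group means. Genes from Ighe to Mir155hg lie higher in every iGCB library, the groups of Cd40 overlap, and genes from Pax5 to Nr4a1 lie lower in every iGCB library.

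Cell cycle genes were higher almost throughout. Of 46 genes of DNA replication and S phase 41 were higher and 0 lower (median 1.98), and of 44 genes of G2 and mitosis 41 were higher and 0 lower (median 2.96). Of 27 cyclins, kinases, inhibitors and E2F factors 17 were higher and 4 lower (median 1.34). The promoters of these genes are known for short motifs that bind E2F factors in S phase genes, and the NF-Y factor (CCAAT) and the DREAM and MuvB complexes (the CHR element) in G2 and mitosis genes. To show them, windows from 250 bases before to 50 bases after the start were read from RefSeq annotation of build GRCm38.p6, for genes of both lists. In the sequences that follow, capitals mark the E2F motif (TTTCCCGC, TTTGGCGC, TTTCGCGC or TTTGCCGC) in Cdc6 (chr11:98907901-98908200, plus strand) and Mcm5 (chr8:75109259-75109558, plus strand), and CCAAT or CHR (TTTGAA or TTCGAA) in Cdk1 (chr10:69352863-69353162, minus strand) and Plk1 (chr7:122159185-122159484, plus strand), each on either strand.
Cdc6: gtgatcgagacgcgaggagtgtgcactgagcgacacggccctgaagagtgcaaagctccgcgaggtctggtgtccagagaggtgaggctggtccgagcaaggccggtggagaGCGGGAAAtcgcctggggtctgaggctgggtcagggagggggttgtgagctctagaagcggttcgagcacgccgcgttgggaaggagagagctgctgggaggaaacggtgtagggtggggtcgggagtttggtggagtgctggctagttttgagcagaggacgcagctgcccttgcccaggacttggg
Mcm5: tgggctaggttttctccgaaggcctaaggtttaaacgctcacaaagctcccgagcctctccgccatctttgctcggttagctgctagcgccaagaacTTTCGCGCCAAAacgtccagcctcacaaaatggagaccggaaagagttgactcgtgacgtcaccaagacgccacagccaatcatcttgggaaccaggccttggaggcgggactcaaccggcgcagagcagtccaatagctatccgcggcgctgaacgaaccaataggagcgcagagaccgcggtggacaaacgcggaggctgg
Cdk1: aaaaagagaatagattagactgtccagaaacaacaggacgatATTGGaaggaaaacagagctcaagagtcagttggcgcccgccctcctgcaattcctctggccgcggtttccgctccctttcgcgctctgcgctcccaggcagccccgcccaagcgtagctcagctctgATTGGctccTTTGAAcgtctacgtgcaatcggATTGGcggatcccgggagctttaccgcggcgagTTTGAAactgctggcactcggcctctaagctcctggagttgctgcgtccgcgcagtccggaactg
Plk1: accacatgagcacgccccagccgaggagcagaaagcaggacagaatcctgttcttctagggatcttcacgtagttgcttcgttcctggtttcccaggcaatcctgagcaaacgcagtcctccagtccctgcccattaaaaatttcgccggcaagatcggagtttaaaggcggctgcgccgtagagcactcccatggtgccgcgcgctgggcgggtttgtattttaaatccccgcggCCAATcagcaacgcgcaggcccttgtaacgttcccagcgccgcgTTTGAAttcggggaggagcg
The E2F motif was in 15 of 46 windows of the S phase list (32.6%), in 3 of 39 windows of the G2 and mitosis list (7.69%) and in 2.26% of all 32851 windows. A CHR motif was in 30 of the 39 G2 and mitosis windows (76.9%), against 17.4% of the S phase windows and 19.2% of all. CCAAT and CHR stood together in 66.7% of the G2 and mitosis windows and in 7.52% of all. The 2 E2F matches in Mcm5 overlap on opposite strands. Motifs not named for a gene were left in lower case. The Cdk1 window, for example, also holds the E2F motif TTTCGCGC, and the Mcm5 window also holds CCAAT. A match is a description of the letters and not a site of binding.

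The values of the genes whose promoters are shown were as follows. Cdc6, which loads the replicative helicase, was at 12.4 and 5.37 CPM in naive cells and at 65.2, 60.0 and 86.7 CPM in iGCB cells (2.98 ± 0.35). Mcm5, a subunit of that helicase, was at 89.7 and 45.4 CPM and then at 206, 219 and 307 CPM (1.85 ± 0.28). Cdk1, the kinase of mitotic entry, was at 6.01 and 3.05 CPM and then at 123, 140 and 168 CPM (4.98 ± 0.40). Plk1, a mitotic kinase, rose by 3.03 ± 0.39, and all 4 genes had groups that did not overlap. Pole2, a subunit of the leading strand polymerase, had the largest fold change of the named S phase genes (5.55), with Rrm2 of ribonucleotide reductase at 3.93 and Pcna at 1.10. Cdt1, the licensing factor, did not pass (-0.29, adjusted p = 0.12), but was lower with the length offset (-0.78, adjusted p = 0.0018), with RLE scaling (-0.38, adjusted p = 0.049) and in DESeq2 (-0.38, adjusted p = 0.023). Ube2c (5.36), Ccnb1 (4.21), Birc5 (3.84), Aurkb (3.45), Top2a (2.89), Foxm1 (2.56) and Mki67 (2.35) were higher. The inhibitor Cdkn1a, a p53 target, was higher as well (4.64), along with Ccnd3 (1.10) and E2f1 (1.79).

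Energy metabolism genes were higher in iGCB cells. Of 32 glycolysis and pentose phosphate genes 26 were higher and 1 lower (median 2.09, and 2.05 with the length offset). Pgk1, phosphoglycerate kinase, was at 28.1 and 20.6 CPM in naive cells and at 990, 1106 and 1139 CPM in iGCB cells (5.47 ± 0.29). Slc16a3, the lactate exporter MCT4, was at 1.99 and 4.03 CPM and then at 149, 157 and 126 CPM (5.59 ± 0.34). Neither overlapped. Tpi1 (4.82), Ldha (3.67), Pkm (3.50) and Hk2 (2.64) were higher, while the glucose transporter Slc2a1 did not pass (0.26, adjusted p = 0.27). Of 30 tricarboxylic acid cycle genes 19 were higher, among them Idh2 (2.25), and 2 lower (median 0.70). The 2 lower became 0 without iGCB WT 1 and 1 without naive WT 1, naive WT 2 or iGCB WT 2.

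Respiratory chain genes were higher where nuclear-encoded and less clear where mitochondrial. Of 72 nuclear-encoded genes 64 were higher and 3 lower (median 1.83), and with the length offset 51 were higher and 7 lower (median 0.88). Cox5a (3.66) of complex IV and Ndufa2 (3.56) of complex I were examples. Of 13 genes of the mitochondrial genome 7 were higher and 0 lower (median 0.71), beside 24.7% higher and 31.7% lower over all genes. With the length offset 1 was higher and 5 were lower (median -0.80), beside 19.4% and 40.8% over all genes. mt-Nd1 was at 1956 and 2118 CPM in naive cells and at 4421, 3793 and 2978 CPM in iGCB cells, a rise of 0.87 that turned to -0.53 (adjusted p = 0.13) with the offset. mt-Cytb likewise moved from 0.71 to -0.57 (adjusted p = 0.087), and its call was also lost without naive WT 1 (0.57, adjusted p = 0.052). mt-Co1 overlapped between stages (-0.14, adjusted p = 0.59), and with the offset it was lower (-1.13, adjusted p = 0.0053). Nuclear copies of mitochondrial DNA share reads with these short genes, so their counts are uncertain. Of 32 genes of mitochondrial DNA, import and proteases 14 were higher and 6 lower, beside the same shares over all genes (24.7% and 31.7%). Their median of 0.45 was 0.28 without naive WT 2. With the length offset 9 were higher and 7 lower (median 0.04). The coactivator Ppargc1b was among the lower (-2.58).

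Lipid synthesis genes rose and sterol export genes fell. Of 37 cholesterol and fatty acid synthesis genes 31 were higher and 4 lower (median 2.14). Idi1, an isomerase of the mevalonate pathway, was at 4.31 and 4.18 CPM in naive cells and at 176, 148 and 138 CPM in iGCB cells (5.18 ± 0.19). Hmgcs1 (3.26) and Sqle (2.81) were higher, as were the desaturase Fads2 (6.12) and fatty acid synthase Fasn (1.45). The desaturase paralogs moved in opposite directions: Scd2 rose from 153 and 104 CPM to 1604, 1336 and 1272 CPM (3.45 ± 0.23), and Scd1 fell from 3340 and 2416 CPM to 607, 573 and 529 CPM (-2.34 ± 0.18). Neither paralog's groups overlapped. The sterol exporters Abca1 (-5.36) and Abcg1 (-2.69), which are targets of liver X receptors, were lower.

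Genes for making protein were higher, by less when the length offset was used. Of 58 cytosolic ribosomal protein genes 45 were higher and 2 lower (median 1.68), and with the length offset 38 and 7 (median 0.64). The 2 lower became 1 without naive WT 1 or naive WT 2 and 0 without iGCB WT 1 or iGCB WT 3. Rplp0 was at 653 and 582 CPM and then at 3020, 3225 and 3656 CPM (2.42), Rps20 rose by 2.96 and Rpl5 by 2.86. The many ribosomal protein pseudogenes share reads with these short genes, so their counts are uncertain. Of 40 genes of Myc and ribosome biogenesis 15 were higher and 6 lower (median 0.48, and 0.20 without iGCB WT 3). Over all genes 24.7% were higher and 31.7% lower, 56.4% in either direction. With the offset 8 of the 40 were higher and 8 lower (median -0.09). The 15 higher became 7 without naive WT 2 and 6 without iGCB WT 3, and the 6 lower became 3 without naive WT 1 and 3 without iGCB WT 1. Npm1, a nucleolar chaperone, was higher (1.29). Myc was at 457 and 425 CPM and then at 280, 361 and 284 CPM, a fall of 0.52 whose call was lost without naive WT 1 (-0.46, adjusted p = 0.058) and without iGCB WT 1 (-0.45, adjusted p = 0.056), with no low-count filter (-0.45, adjusted p = 0.074) and in the 5 WT libraries alone (-0.49, adjusted p = 0.064). Of 36 initiation factors and tRNA synthetases 26 were higher and 1 lower (median 0.85; 3 lower without naive WT 2 and 2 without iGCB WT 3), with the initiation repressor Eif4ebp1 at 3.12. Of 27 nucleotide and folate genes 18 were higher and 1 lower (median 0.996), among them thymidylate synthase Tyms (3.08), Impdh2 (1.78) and the kinase Ak4 (8.56).

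The amino acid response was mixed. Of 28 ATF4 targets and amino acid genes 19 were higher and 6 lower (median 1.60), with 3 called lower without naive WT 2. Atf4 (-1.12) and Ddit3 (-1.93), which encode the transcription factors of the stress branch, and the transporter chain Slc3a2 (-1.03) were lower. Asns (2.85) for asparagine, Psat1 (2.52) for serine, the transporter Slc7a5 (0.93) and the mTOR inhibitor Ddit4 (4.03) were higher. Of 33 constitutive proteasome genes 29 were higher and 1 lower (median 1.21), for example the catalytic subunit Psmb5 (3.22), and the lower was the activator Psme3 (-0.94).

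The secretory apparatus was higher. Of 29 endoplasmic reticulum folding genes 23 were higher and 3 lower (median 1.11), and of 39 genes of the translocon, signal peptidase, glycosylation and COPII transport 29 were higher and 3 lower (median 1.08). Many folding genes carry the ER stress response element, which joins a CCAAT box for NF-Y to a CCACG box that ATF6 and XBP1 can bind. Promoters of 3 folding genes that hold it are shown, with the element (CCAAT and CCACG, 9 bases apart) in capitals on either strand: Hspa5 (chr2:34771840-34772139, plus strand), Creld2 (chr15:88819396-88819695, plus strand) and Hsp90b1 (chr10:86705395-86705694, minus strand).
Hspa5: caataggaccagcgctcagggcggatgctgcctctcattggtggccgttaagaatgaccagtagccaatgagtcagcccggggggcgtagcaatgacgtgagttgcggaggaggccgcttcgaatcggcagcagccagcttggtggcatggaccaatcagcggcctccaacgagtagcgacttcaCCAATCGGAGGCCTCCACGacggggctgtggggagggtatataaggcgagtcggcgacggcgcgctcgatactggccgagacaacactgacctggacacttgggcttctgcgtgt
Creld2: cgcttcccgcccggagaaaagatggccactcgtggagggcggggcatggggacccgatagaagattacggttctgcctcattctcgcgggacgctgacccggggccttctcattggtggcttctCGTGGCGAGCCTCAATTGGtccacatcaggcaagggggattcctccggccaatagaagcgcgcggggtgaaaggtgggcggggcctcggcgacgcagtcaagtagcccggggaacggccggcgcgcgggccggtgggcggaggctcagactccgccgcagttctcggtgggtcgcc
Hsp90b1: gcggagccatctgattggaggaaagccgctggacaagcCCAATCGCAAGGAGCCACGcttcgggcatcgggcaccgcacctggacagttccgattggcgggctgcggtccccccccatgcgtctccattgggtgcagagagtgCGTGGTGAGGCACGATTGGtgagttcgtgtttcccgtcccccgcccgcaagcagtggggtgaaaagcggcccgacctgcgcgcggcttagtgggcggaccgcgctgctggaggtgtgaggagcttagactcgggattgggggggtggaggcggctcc
The element was in 9 of 24 windows of the folding list (37.5%) and in 39 of all 32851 windows (0.119%), and every match also counts as a CCAAT match. Hspa5, the chaperone BiP, was at 766 and 717 CPM in naive cells and at 1140, 1363 and 1425 CPM in iGCB cells (0.82 ± 0.17). Hsp90b1, the chaperone GRP94, was at 651 and 400 CPM and then at 1185, 1381 and 1408 CPM (1.33 ± 0.23). Creld2, a protein disulfide isomerase, was at 28.9 and 16.0 CPM and then at 98.6, 129 and 150 CPM (2.49 ± 0.29). The groups did not overlap in any of the 3. Sdf2l1, a BiP cofactor whose window lacked these letters, rose by 3.03. The oxidase Ero1l was higher (3.38), while the cochaperone Dnajb9 (-2.70) and the stress sensor kinase Eif2ak3 (-1.46) were lower. In the translocation list Sec61b (3.74) of the channel and Sec11c (2.04) of signal peptidase were higher.

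The gene for the transferrin receptor was higher and that for the iron exporter lower. Of 18 tested 9 were higher and 5 lower (median 0.62). Tfrc, the transferrin receptor, was at 79.8 and 82.0 CPM in naive cells and at 682, 585 and 637 CPM in iGCB cells (2.97 ± 0.17). The iron-responsive protein Aco1 (1.37) and Glrx3, a glutaredoxin that handles iron-sulfur clusters (1.63), were higher. The exporter Slc40a1 was at 74.2 and 41.0 CPM and then at 0 counts in all 3 iGCB libraries. The haemoglobin scavenger receptor Cd163 was also at 0 there, the haem oxygenase Hmox1 fell by 2.92, and all of these are high in splenic red pulp macrophages, whose markers fell too. The mitochondrial iron importer Slc25a37 was lower (-1.84). Pcbp1, the gene that the study deleted, was at 152 and 83.9 CPM in naive WT cells and at 148, 327 and 326 CPM in iGCB WT cells, overlapping groups that did not pass the test (1.18 ± 0.63, adjusted p = 0.13). Its call was past the threshold in the fit of the 5 WT libraries alone (1.21, adjusted p = 0.035) and with no low-count filter (1.24, adjusted p = 1.91e-07). Its paralog Pcbp2 was at 0.34 (adjusted p = 0.069), a call gained without naive WT 1 (0.47, adjusted p = 0.043), with library size alone (0.38, adjusted p = 0.036) and in DESeq2 (0.25, adjusted p = 0.042).

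Survival, damage and chromatin genes moved in both directions. Of 24 glutathione and antioxidant genes 12 were higher and 5 lower (median 1.31), with the peroxiredoxin Prdx4 (3.93) and the lipid peroxidase Gpx4 (1.54) higher, and catalase Cat (-0.83) and the regulator Nfe2l2 (-1.04) lower, and without iGCB WT 3 the genes called lower numbered 3. Of 16 BCL2 family genes 7 were higher and 2 lower, beside 24.7% higher and 31.7% lower over all genes (56.4% in either direction). Their median of 0.68 was 1.20 without naive WT 2, and the 2 lower became 1 without naive WT 1 or iGCB WT 3. The survival gene Bcl2l1 was at 9.20 and 6.88 CPM and then at 105, 136 and 80.2 CPM (3.73 ± 0.26), and Bcl2 fell by 0.82. Bcl2a1d (3.18) and the killer Bbc3 (3.11) were higher, and Bcl2l11 did not pass (0.17, adjusted p = 0.67). Mcl1 did not pass (-0.57, adjusted p = 0.093), but was lower without naive WT 2 (-1.01, adjusted p = 0.0034), with the length offset (-0.94, adjusted p = 0.0051), with RLE scaling (-0.65, adjusted p = 0.048), with no low-count filter (-0.52, adjusted p = 0.037) and in DESeq2 (-0.65, adjusted p = 0.031). Of 27 genes of p53 and its targets 17 were higher and 6 lower (median 1.16), among them Ccng1 (2.84) and Mdm2 (0.81) higher and Plk2 (-3.04) and Sesn1 (-1.78) lower. Trp53 itself did not pass (0.21, adjusted p = 0.53) except without naive WT 1 (0.94, adjusted p = 0.0035). Of 32 genes of DNA methylation and chromatin 16 were higher and 12 lower (median 0.64). Ezh2 (2.42) and Dnmt1 (1.32), which copy repressive marks in dividing cells, were higher, and Ezh1 (-1.25), the demethylase Kdm6b (-3.80) and the acetyltransferase Crebbp (-2.33) were lower.

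Of 14 tested hosts of microRNAs and long noncoding RNAs 3 were higher and 3 lower, beside the 56.4% called over all genes. Their median of 0.31 was -0.21 with the length offset, -0.03 without iGCB WT 3, 0.06 without naive WT 1 and 0.54 without naive WT 2. Mir155hg, the host transcript of miR-155, which germinal center B cells need, was at 2.63 and 17.4 CPM in naive cells and at 68.4, 53.3 and 46.0 CPM in iGCB cells (2.49 ± 0.63, adjusted p = 0.0067, no overlap). With the length offset it did not pass (1.30, adjusted p = 0.14). The mature sequence of this miRNA, at chr16:84714143-84714165 on the plus strand of GRCm38.p6, is shown from RefSeq because its host passed the test; capitals mark the seed, bases 2 to 8.
mmu-miR-155-5p: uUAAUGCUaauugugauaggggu
Mature miRNA was not measured by these libraries. Mir17hg, the host of the miR-17 cluster, overlapped between stages (0.02, adjusted p = 0.95). Malat1, a nuclear long noncoding RNA, was lower (-5.94).

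Markers of other cell types were read in every library. The B cell list summed to 29041 and 16211 CPM in naive cells and to 12885, 11008 and 12000 CPM in iGCB cells, with 4 of 8 members lower (7 without naive WT 2) and 0 higher, Ms4a1 among them (-1.25). The monocyte and macrophage list summed to 1001 and 578 CPM in naive cells and to 43.0, 66.0 and 61.2 CPM in iGCB cells, with 15 of 17 lower, including Csf1r (-7.00) and C1qa (-10.38). Neutrophil markers summed to 42.3 and 299 CPM and then to 0.409, 0.557 and 1.09 CPM (8 of 10 lower, Ngp at -10.87). Erythroid markers summed to 139 and 179 CPM and then to 2.69, 1.14 and 1.78 CPM (11 of 12 lower, Hbb-bs at -12.03). T cell markers overlapped in sum, at 87.0 and 49.3 against 51.3, 76.7 and 50.4 CPM, but 12 of 15 were lower, including Cd3e (-4.30), and Tcf7 (1.94) and Cd28 (2.75) were higher. Vcam1, Slc40a1, Cd163 and Hmox1, named above, are lower together with the macrophage list, and the part of these cells in those falls was not tested.

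Fibroblast markers summed higher in iGCB cells. Of 27 tested members 11 were higher and 1 lower, beside 24.7% and 31.7% over all genes. The list summed to 31.4 and 36.2 CPM in naive cells and to 398, 468 and 475 CPM in iGCB cells. Thy1 accounted for most of it, at 9.2 ± 3.95 CPM (SD, n = 2) in naive cells and at 286, 366 and 413 CPM (5.27 ± 0.69). The collagen genes Col1a1 and Col1a2, which define fibroblasts, were at 29.5, 20.2 and 13.1 CPM and at 10.0, 9.81 and 6.09 CPM in iGCB cells, and both were higher (5.83 and 3.80). The part of feeder RNA in the genes that rose, Ccn3 and Thy1 included, was not tested. Dendritic cell markers summed to 48.1 and 61.5 CPM and then to 105, 166 and 108 CPM. Flt3 (2.86), Zbtb46 (3.61) and Batf3 (5.10) rose, while 5 of 10 members were lower. In the marginal zone list 8 of 12 were lower, including Notch2 (-3.62) and its target Dtx1 (-5.10), and Ebi3 was higher (3.55). In the B-1 list 5 of 10 were lower, including Bhlhe41 (-2.19) and Zbtb32 (-4.50), and its summed level was higher at 777, 864 and 690 CPM against 466 and 316 CPM, of which Il5ra was 659, 761 and 593 CPM in iGCB cells.

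**Figure D5:**
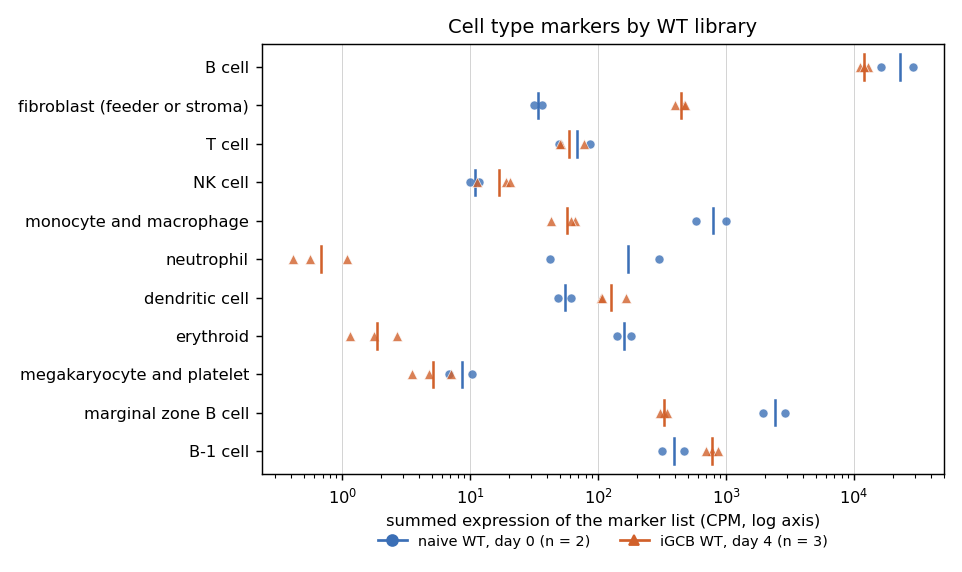
Summed CPM (log axis) of the marker list of each cell type in the 2 naive WT libraries (circles) and the 3 iGCB WT libraries (triangles), with bars at the means. Fibroblast sums lie higher, and macrophage, neutrophil, erythroid and marginal zone sums lower, in every iGCB library, while T cell sums overlap.

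The transition of WT cells was compared with that of cells without Pcbp1, with which it shares no library. The difference of the log2 fold changes passed the threshold for 7 genes (0.0333% of those tested), 4 above (0.019%) and 3 below (0.0143%) in WT. Its unadjusted p was under 0.05 for 1273 of 21010 genes. A share of 0.05 of genes without any difference would also reach that value. Of the 11811 genes called in the KO transition, 9937 had the same call in WT. Sec24d, a COPII coat subunit, rose in WT cells from 11.2 ± 3.99 to 39.1 ± 2.88 CPM and fell in KO cells from 17.0 ± 6.82 to 4.84 ± 0.713 CPM (SD, n = 2 and 3). Jchain overlapped between stages in WT cells, at 249 ± 25.3 and 262 ± 86.3 CPM, and fell from 325 ± 80.0 to 27.2 ± 4.38 CPM in KO cells. The stress transducer gene Creb3l2 likewise was at 32.5 ± 6.30 and 31.8 ± 1.76 CPM in WT cells and fell from 38.4 ± 5.29 to 9.14 ± 1.05 CPM in KO cells. Fmnl2, a formin that nucleates actin, rose from 10.0 ± 0.0323 to 64.2 ± 11.6 CPM in WT cells and was at 14.0 ± 3.18 and 14.7 ± 3.03 CPM in KO cells. Ighd fell in both genotypes, and iGCB cells kept 18.5 ± 4.65 CPM in WT and 273 ± 73.9 CPM in KO. The number of such genes ranged from 0 to 53 above and from 0 to 20 below when 1 library was left out. It was 0 in both directions without iGCB WT 1 and without each of the 3 iGCB KO libraries, 53 and 12 without naive WT 1, and 11 and 20 without naive WT 2. With WT and KO libraries of the same number within a stage as blocks it was 55 above and 19 below, all 7 genes included.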

How the data were processed

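The deposited values were whole-number counts per symbol. The authors counted with featureCounts on mm10, per the submitters' processing notes. For aligner, annotation, versions and strandedness, nothing is stated in the sources used here. Libraries were made from total RNA with an mRNA kit, per the labels' protocols. In WT libraries 17.7% to 26.4% of the values between 1 and 20 were odd, as when both mates are counted singly, so counts are not independent fragments. Genes with too few counts were removed with edgeR's filterByExpr (minimum count 10), and all 10 libraries were fitted in 1 quasi-likelihood negative binomial model with TMM scaling and 4 group means (edgeR 4.0.16, R 4.3.3, 6 residual degrees of freedom). All p-values are two-sided, adjusted by the Benjamini-Hochberg method across the genes tested, with a threshold of 0.05. Log2 fold changes are given with their standard error (SE), and levels as CPM on TMM-scaled totals. The pipeline was tested on simulated data over 19918 genes for the naive against iGCB comparison of WT cells. It found 13% of 100 genes given a 2-fold change and 76% of 100 given a 4-fold change. Of its calls 5.32% were false. In the data 56.4% of genes were called, a far larger share than was changed in the simulation. The shares found there therefore do not carry over to this comparison.

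TPM, used for comparing genes, came from counts per summed exon length in GENCODE M21, which held 96.2% of symbols. Members and the 51 gene lists (1265 genes, 8 without a symbol in the table) were chosen with earlier results of these data known, and lists were described by counts and medians, with no test of a list. In the lists of cytokines, ATF4 targets and iron genes, members at 0 counts in a group did not move the printed median when set to a bound of 3 counts per group. The genes named were Pcbp1 and Pcbp2, the 12 highest and 12 lowest fold changes among genes past the threshold with an average log2 CPM of 2 or more and no overlap (V, D or J segments, predicted and clone-named genes left out), the most abundant genes per length, key or strongly changed list members, and genes whose transition differed between genotypes. Gm19585 and Zfp521, named in the closing section, fall outside that rule and were chosen after their values were seen. A few genes that the rule covers are not reported here.

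Libraries carry replicate numbers, and the series text speaks of pairs of WT and KO libraries without saying what a pair shares. With group means subtracted, naive and iGCB WT libraries of the same number correlated at -0.15 (number 1) and 0.16 (number 2) over 7395 genes. Within a stage, WT and KO libraries of the same number correlated at 0.66 in the naive pairs. In the iGCB pairs they correlated at 0.54, -0.18 and -0.05. The correlation was not over 0.1 in every pair, so the fit used no pairing. What naive libraries of the same number share therefore stays in the spread of each gene. In a naive group of 2 libraries the deviations are equal and opposite, so the naive pairs give 1 value and not 2. For the same reason, the correlations of the 2 naive WT libraries with any iGCB library differ only in sign. Alternatives were other scaling (DESeq2's size factors through edgeR's RLE, library size alone, no immunoglobulin genes), no low-count filter, a test against a fold of 2, a replicate block, a block of WT with KO libraries within a stage, the 5 WT libraries alone, each library left out, DESeq2 1.42.0, and an exon length offset (lowess, span 0.3). Promoter windows and the miRNA sequence came from RefSeq tables of GRCm38.p6, searched on both strands.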

Additional observations from a re-analysis of the deposited data

Results flagged for a closer look

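The transition differed between WT and KO cells, by a test of the difference itself (edgeR, adjusted p under 0.05), in 7 genes. The log2 fold change was larger in WT by 3.65 for Jchain (adjusted p = 0.022), by 3.61 for Sec24d (0.024), by 2.61 for Fmnl2 (0.039) and by 2.04 for Creb3l2 (0.042). It was smaller in WT for Ighd, with a difference of -3.56 (0.022), for Gm19585, with -2.38 (0.027), and for Zfp521, with -6.49 (0.042). Gm19585, a predicted gene, was at 7.91 ± 1.26 and 9.33 ± 1.68 CPM in WT cells and rose from 16.6 ± 0.575 to 102 ± 13.8 CPM in KO cells. Zfp521 was at 20.1 ± 2.90 CPM in iGCB WT cells and 24.9 ± 2.76 CPM in iGCB KO cells, and its difference depends on the prior count, because both naive KO libraries held 0 counts. Groups of 2 and 3 libraries were too small for a check of single libraries that stand apart.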

How the results depend on the processing

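For iGCB against naive WT, none of the 11845 calls was reversed under any alternative except for 56 with the exon length offset. The count higher was 5184 and the count lower 6661, against 2739 and 4174 when tested against a fold of 2. The library numbers do not pair naive with iGCB WT libraries, and a replicate block gave 3705 higher and 4219 lower, with the difference between genotypes at 6 above and 5 below. Under this block 4 named genes were not past the threshold: Cd79a (-0.66, adjusted p = 0.064), Irf4 (-0.71, adjusted p = 0.051), Myc (-0.47, adjusted p = 0.16) and mt-Cytb (0.79, adjusted p = 0.061). Within a stage, same-numbered WT and KO libraries deviated together in the naive pairs (correlation 0.66). The naive pairs give 1 value, since the deviations of 2 libraries mirror each other. Same-numbered libraries also deviated together in iGCB pair 1 (0.54), but not in iGCB pairs 2 (-0.18) and 3 (-0.05). Pairing was therefore not taken as shown. A replicate block of WT with KO libraries within a stage, chosen after the data were seen, gave 55 above and 19 below for the difference, all 7 genes among them. Leaving out 1 library gave 4080 to 5013 higher and 5008 to 6224 lower. DESeq2 gave 5295 and 7110. The difference between the transitions (4 above, 3 below) was sensitive: 258 and 115 with no low-count filter, 170 and 72 with DESeq2, 38 and 12 with the length offset, 0 and 0 against a fold of 2, and 0 to 53 and 0 to 20 when 1 library was left out. With no filter, with the block within a stage and in DESeq2 the cause was not tested. With the length offset the log2 fold changes of 3 named genes changed sign: Cd40 to -0.42, mt-Nd1 to -0.53, mt-Cytb to -0.57. Cd40 was past the threshold only with the offset, and mt-Nd1 and mt-Cytb only without it. Depth limits what can be said of genes with few counts per library.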
